A study of Mus musculus with 4 samples.

Results

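Transcripts of 5 receptors of the TNF receptor family were followed through antigen-specific mouse B cells: Tnfrsf13c (BAFF-R), Tnfrsf13b (TACI), Tnfrsf17 (BCMA), Fas (CD95) and Cd27. They were chosen by name, as the receptors for the cytokines BAFF and APRIL together with the death receptor Fas and the memory-cell marker Cd27, and all 5 were found among the 32285 genes of both mRNA matrices. B cells carrying MD4, a transgenic immunoglobulin against hen egg lysozyme (HEL), were transferred as mixtures into 6 wild type CD45.1+ recipients, which were then immunized with sheep red blood cells coupled to HEL. Spleens were taken on day 8. Cells of each mouse were tagged with a hashtag antibody, pooled, and sorted as HEL+ CD95+ CD45.1+ or HEL+ CD95+ CD45.2+ cells, which gave 2 mRNA libraries with a hashtag library each.

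The CD45.1 sort held MD4 Dock8 wt/wt cells without BCL2.Tg from all 6 mice. The CD45.2 sort held MD4 cells with BCL2.Tg, a B cell-restricted BCL2 transgene, which were Dock8 wt/wt in the 3 mice of the WT group and Dock8 cpm/cpm in the 3 mice of the DOCK8-deficient group. The cpm allele arose by chemical mutagenesis and is described as null for DOCK8, a regulator of the actin cytoskeleton. Donors were adult and age-matched. Dock8 wt/wt CD45.2 donors were male and Dock8 cpm/cpm donors female, so genotype and donor sex cannot be told apart. Between the sorts, BCL2.Tg, the CD45 allele, the donor and the library change together and cannot be told apart either. The gate on CD95 selected on the protein made from Fas, so every cell here had passed a Fas gate and a low Fas transcript level is a level among CD95+ cells.

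BAFF-R, TACI and BCMA bind the B cell survival cytokines BAFF and APRIL with different preference: BAFF-R binds BAFF and keeps mature B cells alive, TACI binds both and takes part in class switching and restraint of B cell numbers, and BCMA serves long-lived plasma cells. Fas triggers caspase-driven death when it meets Fas ligand and is a classical surface marker of germinal center (GC) B cells. CD27, the receptor for CD70, marks memory B cells in humans and is carried by most T cells in mice. In the GC, B cells divide in the dark zone (DZ), test their receptor and seek T cell help in the light zone (LZ), and leave as memory cells or as plasma cells and plasmablasts (PC).

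Promoter sequences of the 3 members that differed most between states are given first, from RefSeq on GRCm38.p6, 130 bases up to the annotated start, 5′ to 3′ on the strand of the gene. Capitals mark matches, on either strand, to the motifs described next. Tnfrsf17 is read from chr16:11313679-11313808 on the plus strand, Tnfrsf13c from chr15:82224381-82224510 on the minus strand and Fas from chr19:34290529-34290658 on the plus strand.
Tnfrsf17: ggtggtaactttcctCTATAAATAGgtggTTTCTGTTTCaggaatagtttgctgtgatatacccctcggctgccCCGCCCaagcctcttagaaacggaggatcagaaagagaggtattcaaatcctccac
Tnfrsf13c: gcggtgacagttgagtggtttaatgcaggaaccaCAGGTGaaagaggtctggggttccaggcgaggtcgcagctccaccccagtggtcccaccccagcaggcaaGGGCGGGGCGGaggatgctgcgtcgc
Fas: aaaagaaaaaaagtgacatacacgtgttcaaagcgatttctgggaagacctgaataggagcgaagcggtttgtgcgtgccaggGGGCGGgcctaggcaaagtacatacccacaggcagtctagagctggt

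The Tnfrsf17 window held the first run of capitals 115 bases before the start. That run was searched as an exact string, which 0.164% of the 32851 RefSeq promoter windows hold. Looser spellings were not searched, so this is not the share of promoters with a TATA box. The windows searched, all of one length, begin further upstream than the stretches printed and end shortly past the start. It also held, on the minus strand 101 bases before the start, the core of an interferon response element (GAAA, NN and GAAA in one run), which is found in 3.44% of promoters, and GGGCGG, the GC box, on the minus strand at 56. GGGCGG occurs in 35.7% of promoters. It was matched in Tnfrsf13c at 26 and, overlapping that match, at 21, and in Fas at 47 bases before the start and once more past it, outside the stretch printed. CAGGTG, an E-box spelling read by E2A proteins, occurs in 20.2% of promoters and was matched in Tnfrsf13c at 96. The NF-kB motif (4.51% of promoters) and the string AGNGAAAG (8.63%) had no match in these windows of the 5 genes. A match is a spelling in this window and was not tested as a binding site.

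On GRCm38, Tnfrsf13b (ENSMUSG00000010142) lies at chr11:61126755-61149372 on the plus strand, with 5 exons and a pseudogene, Gm12269, on the opposite strand. Tnfrsf13c (ENSMUSG00000068105) lies at chr15:82221743-82224369 on the minus strand with 3 exons, and Tnfrsf17 (ENSMUSG00000022496) at chr16:11313812-11320074 on the plus strand with 3 exons. Fas (ENSMUSG00000024778) spans chr19:34290666-34327772 on the plus strand in 9 exons and contains Gm27818, a short RNA gene of the same strand. Cd27 (ENSMUSG00000030336) lies at chr6:125232622-125237010 on the minus strand in 6 exons, with Vamp1 overlapping it on the plus strand.

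After the hashtags were read, 3204 cells of the CD45.1 sort and 6488 of the CD45.2 sort were kept. The 6 CD45.1 samples held 339 to 947 cells with a median of 4235.5 to 6498 UMIs per cell, the 3 CD45.2 Dock8 wt/wt samples 1672 to 2607 cells (5903 to 7438 UMIs), and the 3 Dock8 cpm/cpm samples 57, 44 and 101 cells. Of the barcodes found in both the mRNA and the hashtag library of a sort, 21 occurred in both sorts and 6 were kept in both. Cells were clustered without the 5 members and named from the study's marker lists, so each state name here means cells like that state: LZ, DZ, early GC, activated or memory-like (EAM) and PC. The study drew those lists from these same libraries, and each state rests on other genes of the same cells. Bcl6 and Cd83, given next, are on the LZ lists, so their LZ levels are part of the naming. Defining genes fitted the names: in CD45.1 cells Bcl6, the GC transcription factor, averaged 137 CPM (UMIs per 1000000 UMIs) in LZ, 126 in DZ and 0.697 in PC, Cd83 564 in LZ and 178 in DZ, and Sdc1, the plasma cell syndecan, 167 in PC and at most 2.54 elsewhere. The 20 T cell genes listed summed to 42.7 to 274 CPM in the CD45.1 B cell states and 88.3 to 228 CPM in the CD45.2 Dock8 wt/wt ones, against 8661 to 13129 CPM in the T cells found beside them. One of the 20, Lck, was among the highest genes of the LZ cluster, whose CD45.1 cells held 0 CPM of Cd3e. The alternative named without cells holding T cell UMIs left out every cell with a UMI of any of the 20. B cells with Lck were thus left out too, and a call lost under it does not measure T cell RNA. Immunoglobulin transcripts took 34.2% to 38.3% of PC UMIs and 1.98% to 3.65% in the other states. Dock8 transcripts did not check the genotype, since the cpm/cpm samples held 105, 101 and 91.6 CPM and the wt/wt CD45.2 samples 98.1, 98.7 and 83.6 CPM.

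Levels were measured per mouse and state as CPM of the summed UMIs. The first question was how the 5 receptors differed between states. On this scale, Tnfrsf13c and Fas were highest in LZ, lower in DZ and lowest in PC, and Tnfrsf17 was almost restricted to PC. Tnfrsf13b was detected in all 4 states, and Cd27 was low in all of them. A fall from LZ to DZ here is one in the share of UMIs. DZ cells held more UMIs in all (medians of 6284 to 7807 in CD45.1 mice, against 3272 to 3942 in LZ). UMIs per cell averaged 0.68 for Fas in DZ and 0.51 in LZ of those mice, 0.93 and 0.75 for Tnfrsf13b, and 0.078 and 0.073 for Cd27. Tnfrsf13c averaged 2.45 to 2.88 in the DZ clusters and 2.40 in LZ. Differences between states were fitted with edgeR's quasi-likelihood test with the mouse as a block, and adjusted p-values are Benjamini-Hochberg values over all genes tested. Across all genes, 43.3% were called at an adjusted p under 0.05 for DZ against LZ, 64.4% for PC and 35.1% for EAM in CD45.1 cells, and 32.8%, 43.1% and 22.6% in CD45.2 Dock8 wt/wt cells, so a call by itself was common.

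**Figure D1:**
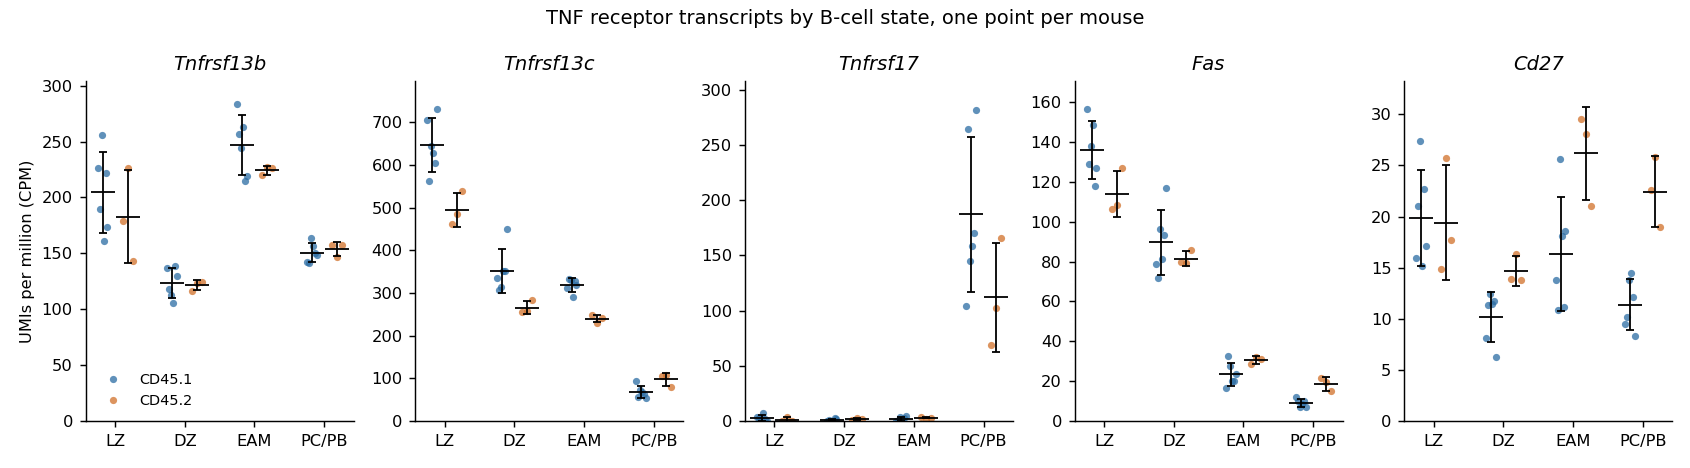
CPM (vertical axis, linear, from 0) of the 5 receptors in LZ, DZ, EAM and PC cells, 1 point per mouse for CD45.1 cells (6 mice) and CD45.2 Dock8 wt/wt cells (3 mice). Bars give the mean and SD. Tnfrsf17 stands at 104 to 282 CPM in CD45.1 PC and at most 7.56 in the other states, and within each sort the Fas points of the 4 states do not overlap.

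Tnfrsf13c, the BAFF receptor, was highest in LZ. In CD45.1 LZ cells the lowest, median and highest mouse held 563, 637 and 732 CPM, against 306, 343 and 450 in DZ, 290, 323 and 333 in EAM and 54.4, 65.1 and 92.5 in PC. LZ lay above every other state and PC below every other state with no overlap between mice, while DZ and EAM overlapped and DZ was the higher in 4 of 6 mice. The CD45.2 Dock8 wt/wt mice had the same order of means, with 461, 485 and 539 CPM in LZ, 256, 256 and 282 in DZ, 247, 230 and 241 in EAM and 106, 107 and 78.5 in PC. Against LZ, the log2 difference in CD45.1 cells was −0.92 (SE 0.08, adjusted p = 1.32e-14) in DZ, −0.71 (SE 0.09, adjusted p = 5.36e-10) in EAM and −2.49 (SE 0.10, adjusted p = 3.18e-31) in PC. In CD45.2 Dock8 wt/wt cells it was −0.83, −0.81 and −1.62 (adjusted p = 4.89e-07, 1.34e-06 and 6.89e-13). Tnfrsf13c was therefore lower than in LZ in all 3 contrasts of both sorts.

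Tnfrsf13b, the receptor for both BAFF and APRIL, stood at 105 CPM or more in every mouse and B cell state shown here. T cells in the same libraries averaged 77.4 CPM in the CD45.1 sort (32.3 and 122 in 2 mice). In the CD45.2 Dock8 wt/wt mice they averaged 97.3 CPM (85.1 to 113), so the DZ levels below stood near those of T cells. Its lowest, median and highest CD45.1 mouse held 161, 206 and 256 CPM in LZ, 105, 124 and 139 in DZ, 215, 250.5 and 284 in EAM and 141, 149 and 164 in PC. EAM was above LZ in 4 of 6 mice, LZ above PC in 6 of 6 with ranges that touch, and DZ lay below LZ and PC without overlap. In the CD45.2 Dock8 wt/wt mice LZ held 178, 227 and 143 CPM, DZ 116, 124 and 125, EAM 220, 227 and 226, and PC 158, 147 and 158. The fall from LZ to DZ was called in both sorts, with a log2 difference of −0.78 (SE 0.10, adjusted p = 2.15e-09) in CD45.1 and −0.57 (SE 0.12, adjusted p = 0.000543) in CD45.2 cells. The latter was −0.34 (adjusted p = 0.22) without WT-group mouse 2. EAM was higher than LZ by 0.56 (SE 0.10, adjusted p = 3.59e-06) and 0.48 (SE 0.12, adjusted p = 0.00325). On total counts the CD45.2 value was 0.24 (adjusted p = 0.125), and 0.25 (adjusted p = 0.117) without immunoglobulin genes, so that call was lost.

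The direction of Tnfrsf13b in PC against LZ turned with the scaling. With TMM factors, which centre the bulk of genes, the log2 difference was 0.41 (SE 0.10, adjusted p = 0.000234) in CD45.1 cells and 0.42 (SE 0.12, adjusted p = 0.00552) in CD45.2 cells. On total counts, of which PC spend the immunoglobulin share given above, it was −0.45 (adjusted p = 3.8e-05) and −0.30 (adjusted p = 0.029). On total counts without the 394 immunoglobulin genes it was 0.17 (adjusted p = 0.11) and 0.31 (adjusted p = 0.037). UMIs per cell, which are not scaled, averaged 0.75 in LZ and 1.57 in PC of the CD45.1 mice. Total counts moved the median of all genes by −0.858 and −0.722 in the PC contrast, and by −0.321 and −0.234 in EAM. Calls in CD45.1 PC then went from 2454 higher and 2520 lower to 1145 higher and 5189 lower, in CD45.2 PC from 2388 and 2252 to 1043 and 5917, and in EAM from 1455 and 1254 to 883 and 2962 and from 1316 and 1116 to 785 and 2362. Tnfrsf13c (−3.35 and −2.35), Fas (−4.04 and −2.62) and Tnfrsf17 (6.06 and 5.51) kept their direction in PC on total counts.

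**Figure D2:**
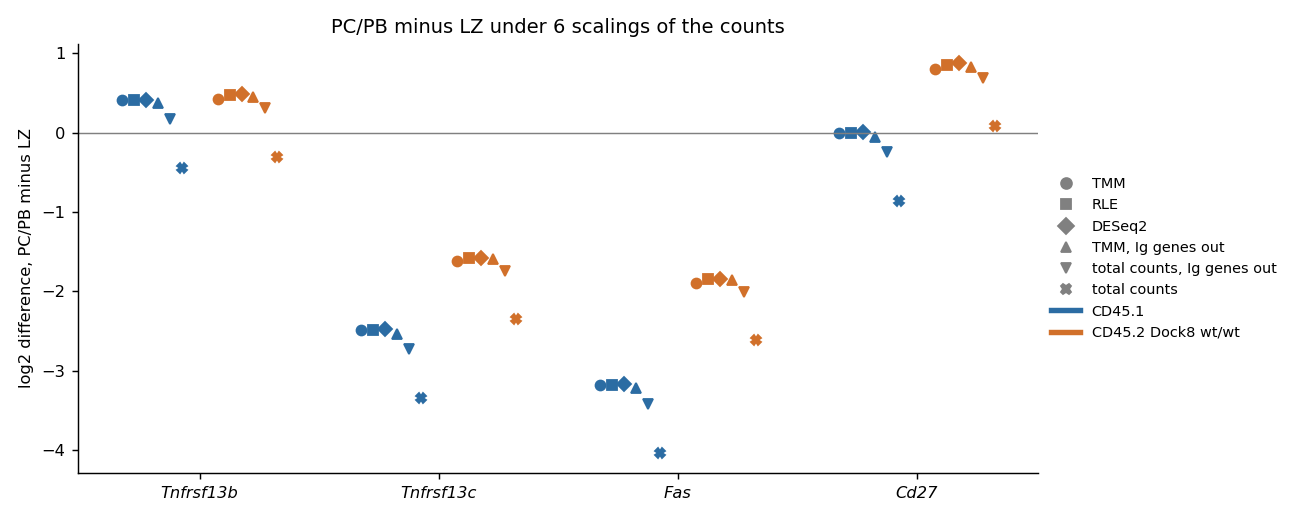
Log2 difference of PC against LZ (vertical axis) for 4 receptors under 6 scalings of the counts, which are marked by shape, with colours for the 2 sorts. Tnfrsf13b lies above 0 with TMM factors (0.41 and 0.42) and below 0 on total counts (−0.45 and −0.30), whereas Tnfrsf13c and Fas stay below 0 throughout.

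Tnfrsf17, the plasma cell receptor BCMA, was a PC transcript. In CD45.1 PC the lowest, median and highest mouse held 104, 164 and 282 CPM, from 1640 UMIs in 696 cells. The 1004 LZ cells held 9 UMIs, the 703 DZ cells 5 and the 682 EAM cells 11, and the highest value of any mouse in those states was 7.56 CPM. In the CD45.2 Dock8 wt/wt mice PC held 68.6, 102 and 166 CPM (219, 541 and 726 UMIs) and LZ 0, 3.6 and 0 CPM (0, 7 and 0 UMIs). The fitted log2 difference of PC against LZ was 6.90 (SE 0.23, adjusted p = 3.72e-36) in CD45.1 and 6.23 (SE 0.32, adjusted p = 5.45e-16) in CD45.2 cells. Both depend on the few LZ UMIs, and the CD45.2 value ran from 5.71 to 12.2 on leaving out a mouse, since mouse 2 held all 7 of them. No difference was detectable at this depth between LZ and DZ (−1.39, SE 0.72, adjusted p = 0.115, and −0.18, SE 0.73, adjusted p = 0.883) or EAM (0.23, adjusted p = 0.805, and 0.55, adjusted p = 0.618).

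Within PC, the clusters were not tested against each other for Tnfrsf17. In CD45.2 Dock8 wt/wt cells the cluster PC1 held 34.8 ± 43.3 CPM (SD, n = 3), PC2 124 ± 59.7 and the cycling cluster 150 ± 52.3. In CD45.1 cells PC2 held 211 ± 83.9 CPM and the cycling cluster 165 ± 35.6. The spread between mice was of the size of these differences, and the 2 sorts had PC2 and the cycling cluster in opposite order. Tnfrsf17 and Tnfrsf13b were detected together in 28.9% to 57.3% of the PC of each CD45.1 mouse and in 19.5%, 21.6% and 35.6% of those of the CD45.2 Dock8 wt/wt mice, without thinning. All 3 receptors for BAFF and APRIL were detected in 7.89% to 21.7% and 10.0% to 19.0% of PC, and none of the 3 in 4.41% to 16.9% and 9.03% to 15%.

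Fas fell in 1 order in both sorts. In CD45.1 cells the lowest, median and highest mouse held 118, 133 and 157 CPM in LZ, 71.7, 87.3 and 117 in DZ, 16.5, 21.9 and 32.4 in EAM and 6.83, 9.27 and 11.9 in PC. In the CD45.2 Dock8 wt/wt mice LZ held 107, 108 and 127 CPM, DZ 79.6, 79.1 and 85.8, EAM 28.5, 32.0 and 31.3, and PC 21.3, 19.4 and 14.8. No 2 neighbouring states overlapped in either sort, although the gap between LZ and DZ in CD45.1 mice was narrow. The log2 differences against LZ in CD45.1 cells were −0.63 (SE 0.12, adjusted p = 6.86e-06) for DZ, −2.23 (SE 0.16, adjusted p = 5.45e-18) for EAM and −3.18 (SE 0.18, adjusted p = 3.26e-24) for PC. Those in CD45.2 cells were −0.40 (SE 0.12, adjusted p = 0.015), −1.65 (SE 0.14, adjusted p = 1.64e-10) and −1.89 (SE 0.15, adjusted p = 6.43e-12). The DZ call was lost in both sorts with hashtags normalized over each cell (−0.26, adjusted p = 0.35, and −0.15, adjusted p = 0.20). In CD45.2 cells it was also lost with LZ1 counted in LZ (−0.17, adjusted p = 0.26), without a filter on low counts (−0.34, adjusted p = 0.0605), without cells holding T cell UMIs (−0.46, adjusted p = 0.061), and without mouse 1 (−0.41, adjusted p = 0.054) or mouse 2 (−0.45, adjusted p = 0.12). EAM and PC cells had passed the same CD95 gate as the GC cells while holding less Fas mRNA. A second LZ cluster of the CD45.2 sort, LZ1, held 56.9 ± 9.93 CPM of Fas and 188 ± 36.4 CPM of Tnfrsf13c (SD, n = 3), against 114 ± 11.5 and 495 ± 40.0 in LZ. In the CD45.1 sort LZ1 held 113 ± 53.0 CPM of Fas, near that of LZ, and 280 ± 83.7 CPM of Tnfrsf13c, from 42 cells of 3 mice.

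Cd27 was low and its states overlapped. In CD45.1 cells the lowest, median and highest mouse held 15.1, 19.1 and 27.4 CPM in LZ, 6.29, 11.4 and 12.4 in DZ, 10.8, 15.9 and 25.6 in EAM and 8.32, 11.1 and 14.5 in PC, from 51 to 76 UMIs per state. In CD45.2 Dock8 wt/wt cells LZ held 14.9, 25.7 and 17.7 CPM, DZ 13.9, 16.3 and 13.8, EAM 29.5, 28.1 and 21.0, and PC 22.6, 25.8 and 18.9. T cells in the same libraries held 178 and 267 CPM. The fall from LZ to DZ was called in CD45.1 cells (−1.03, SE 0.26, adjusted p = 0.000771) and not in CD45.2 cells (−0.46, SE 0.22, adjusted p = 0.103). With hashtags normalized over each cell the calls were the other way round (−0.93, adjusted p = 0.14, in CD45.1 and −0.58, adjusted p = 0.0016, in CD45.2), and the CD45.2 fall was also called under a 3-fold hashtag rule (−0.62, adjusted p = 0.0047). PC was higher than LZ in CD45.2 cells (0.80, SE 0.20, adjusted p = 0.00145) and close to it in CD45.1 cells (−0.01, SE 0.25, adjusted p = 0.974), but on total counts the values were 0.08 (adjusted p = 0.77) and −0.87 (adjusted p = 0.0012), and without cells holding T cell UMIs the CD45.2 value was 0.73 (adjusted p = 0.071). EAM against LZ gave 0.14 (adjusted p = 0.697) and 0.54 (SE 0.20, adjusted p = 0.046). The latter call was not stable. It was lost without the mouse block (0.49, adjusted p = 0.093), with DESeq2 (0.55, adjusted p = 0.12), with hashtags normalized over each cell (0.20, adjusted p = 0.31), on total counts (0.31, adjusted p = 0.27), without cells holding T cell UMIs (0.45, adjusted p = 0.45) and on leaving out any of the 3 mice (0.38, adjusted p = 0.28, without mouse 1).

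**Figure D3:**
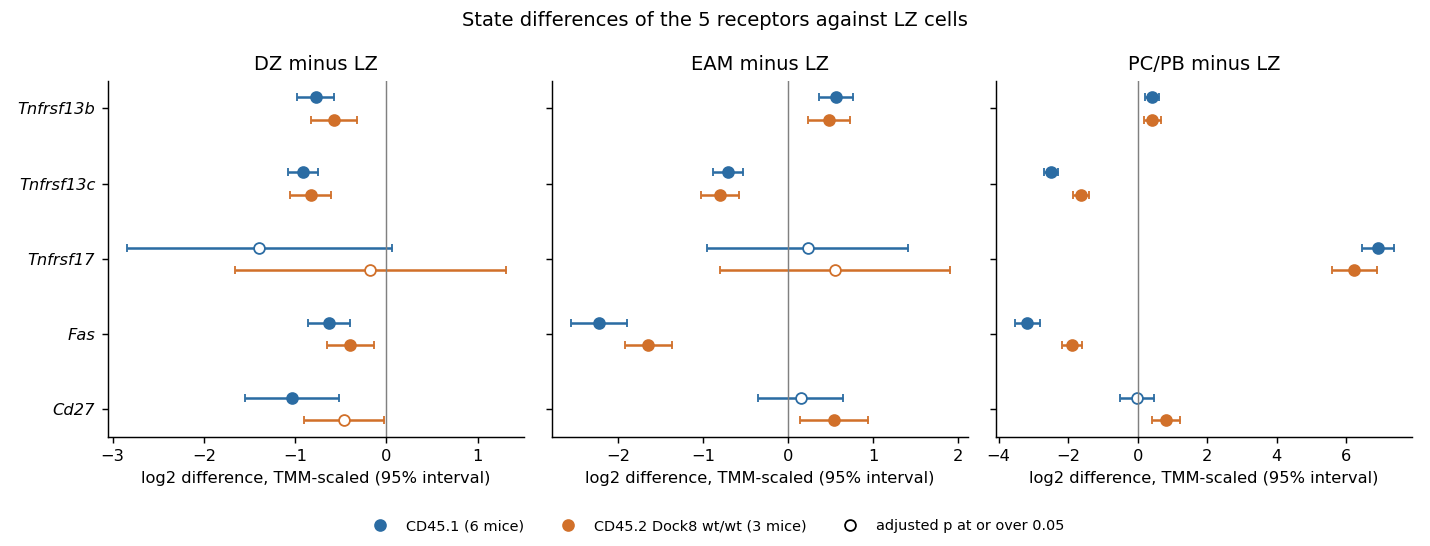
Log2 difference with its 95% interval of DZ, EAM and PC against LZ (horizontal axis, TMM-scaled) for the 5 receptors in CD45.1 cells (6 mice) and CD45.2 Dock8 wt/wt cells (3 mice). Open points have an adjusted p of 0.05 or more. Tnfrsf17 reaches 6.90 and 6.23 in PC while Fas falls to −3.18 and −1.89, and the Tnfrsf13b values in PC, 0.41 and 0.42 here, turn negative on total counts.

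Detection in single cells was compared after each cell was thinned to 2000 UMIs. Shares are of cells pooled over mice, and intervals are 95% exact binomial ones. They cover counting error only, and not differences from mouse to mouse. In CD45.1 cells a Tnfrsf13c UMI was found in 73.0% of LZ (688 of 942 cells), 50.4% of DZ, 44.5% of EAM and 14.6% of PC, and in 0 of 40 T cells, whose interval reaches 8.81%. Tnfrsf13b was found in 33.2%, 22.0%, 36.3% and 24.3%, and in 17.5% of T cells (7 of 40). The interval of that T cell share, 7.34% to 32.8%, held the DZ and PC shares. Tnfrsf17 was found in 31.0% of PC (214 of 691 cells, 27.5% to 34.6%). Taken mouse by mouse, its PC share ran from 15.8% to 40%, with a mean of 26.2%, which lies outside that interval. It was found in 0.637% of LZ, 0.151% of EAM, 0 of 694 DZ cells and 0 of 40 T cells (up to 8.81%). Fas was found in 24.6% of LZ, 16.9% of DZ, 4.24% of EAM and 1.88% of PC, and in 5% of T cells (2 of 40). Cd27 lay between 2.59% and 3.29% in the 4 B cell states and reached 30% in T cells (12 of 40). Shares in EAM and PC for Fas were at or below that of T cells, which can hold Fas themselves.

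In CD45.2 Dock8 wt/wt cells Tnfrsf13c was found in 57.5% of LZ and 17.5% of PC, against 14.9% of T cells (7 of 47), so the PC share stood near the share in cells of another lineage. Tnfrsf17 was found in 14.5% of PC (209 of 1444, 12.7% to 16.4%) and 4.26% of T cells. Taken mouse by mouse, its PC share ran from 8.97% to 21.2%, with a mean of 14.4%. Fas was found in 19.5% of LZ, 16.0% of DZ, 5.84% of EAM and 3.46% of PC, against 10.6% of T cells. Cd27 was found in 2.76% to 5.33% of the B cell states and 40.4% of T cells. Thinning left out 62 LZ, 9 DZ, 21 EAM and 5 PC cells of the CD45.1 sort. Without it the CD45.1 shares were 49.3% of LZ and 71.4% of PC for Tnfrsf13b, the opposite order to the thinned ones, 62.5% of PC for Tnfrsf17, and 36.9% of LZ and 46.2% of DZ for Fas.

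The second question was whether BCL2.Tg CD45.2 cells and CD45.1 cells, both Dock8 wt/wt, differed in the same 3 mice of the WT group. Tnfrsf13c was lower in CD45.2 GC cells (LZ and DZ together), with 272, 326 and 310 CPM in mice 1 to 3 against 444, 476 and 539 in their CD45.1 cells. The groups did not overlap, and the log2 difference was −0.68 (SE 0.05, adjusted p = 1.01e-23). All genes gave 16.1% called in GC, 3.83% in EAM and 23.1% in PC. In these mice the CD45.1 GC cells were 441 LZ and 374 DZ cells and the CD45.2 ones 513 and 1198, so the mix of zones differed. Within LZ alone the Tnfrsf13c difference was −0.40 (adjusted p = 0.0016) and within DZ alone −0.53 (adjusted p = 6.7e-09). In EAM it was −0.46 (SE 0.08, adjusted p = 0.00182), and −0.46 (adjusted p = 0.11) without mouse 3.

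Fas in GC cells was 81.7, 88.0 and 90.3 CPM in CD45.2 and 104, 106 and 120 in CD45.1 cells of mice 1 to 3, lower in 3 of 3 (−0.34, SE 0.09, adjusted p = 0.00235). That call was lost within LZ alone (−0.18, adjusted p = 0.65), within DZ alone (−0.26, adjusted p = 0.19), without mouse 3 (−0.31, adjusted p = 0.075) and without cells holding T cell UMIs (−0.22, adjusted p = 0.37). Tnfrsf13b (−0.15, SE 0.08, adjusted p = 0.179) and Cd27 (0.28, SE 0.22, adjusted p = 0.443) did not pass in GC, and Tnfrsf17 had too few UMIs there to be tested. In EAM, Tnfrsf13b (−0.12), Fas (0.40) and Cd27 (0.44) did not pass either (adjusted p = 0.581, 0.333 and 0.386).

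In PC, 4 of the 5 receptors were called between the sorts, beside 23.1% of all genes. The mix of PC clusters differed too, with 16 of 521 CD45.1 PC in PC1 and 88 in the cycling cluster, against 227 and 102 of 1449 CD45.2 PC. Tnfrsf17 was lower in CD45.2 PC, with 68.6, 102 and 166 CPM against 158, 170 and 282 in the CD45.1 PC of the same mice (−0.997, SE 0.10, adjusted p = 3.45e-07). It was lower in each mouse, although the 2 groups overlapped across mice. Tnfrsf13c was higher in CD45.2 PC, at 106, 107 and 78.5 CPM against 66.8, 63.4 and 54.4 (0.50, SE 0.11, adjusted p = 0.00237). Fas was 21.3, 19.4 and 14.8 CPM against 8.71, 9.82 and 6.83 (0.96, SE 0.23, adjusted p = 0.00419), and Cd27 22.6, 25.8 and 18.9 against 14.5, 12.1 and 8.32 (0.90, SE 0.21, adjusted p = 0.00317). These 3 did not overlap between sorts, and the share of all genes without overlap was not counted. Tnfrsf13b did not pass (−0.11, SE 0.09, adjusted p = 0.421). Within PC2 alone Tnfrsf17 (−1.03, adjusted p = 1.1e-07), Tnfrsf13c (0.54, adjusted p = 0.0022) and Fas (0.99, adjusted p = 0.012) kept their calls and Cd27 did not (0.66, adjusted p = 0.055).

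RNA of other B cell states moved with the PC results. In the same 3 mice Ms4a1, which encodes CD20, averaged 301 CPM (196 to 378) in CD45.2 PC and 55.5 (34.8 to 66.8) in CD45.1 PC, and Bcl6 14.3 and 0.603. T cells of the CD45.2 library likewise held more of them, with 503 CPM of Ms4a1 against 96.8 in the CD45.1 library (2 mice). The part of this RNA in the Tnfrsf13c, Fas and Cd27 values of PC was not tested. With DESeq2, Tnfrsf17 alone was called in PC (Tnfrsf13c 0.49, adjusted p = 0.072, Fas 0.96, adjusted p = 0.16, Cd27 0.85, adjusted p = 0.16). Without cells holding T cell UMIs, Tnfrsf13c gave 0.33 (adjusted p = 0.16) and Fas 0.92 (adjusted p = 0.074) in PC. Cd27 gave 0.77 (adjusted p = 0.061) without mouse 3.

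**Figure D4:**
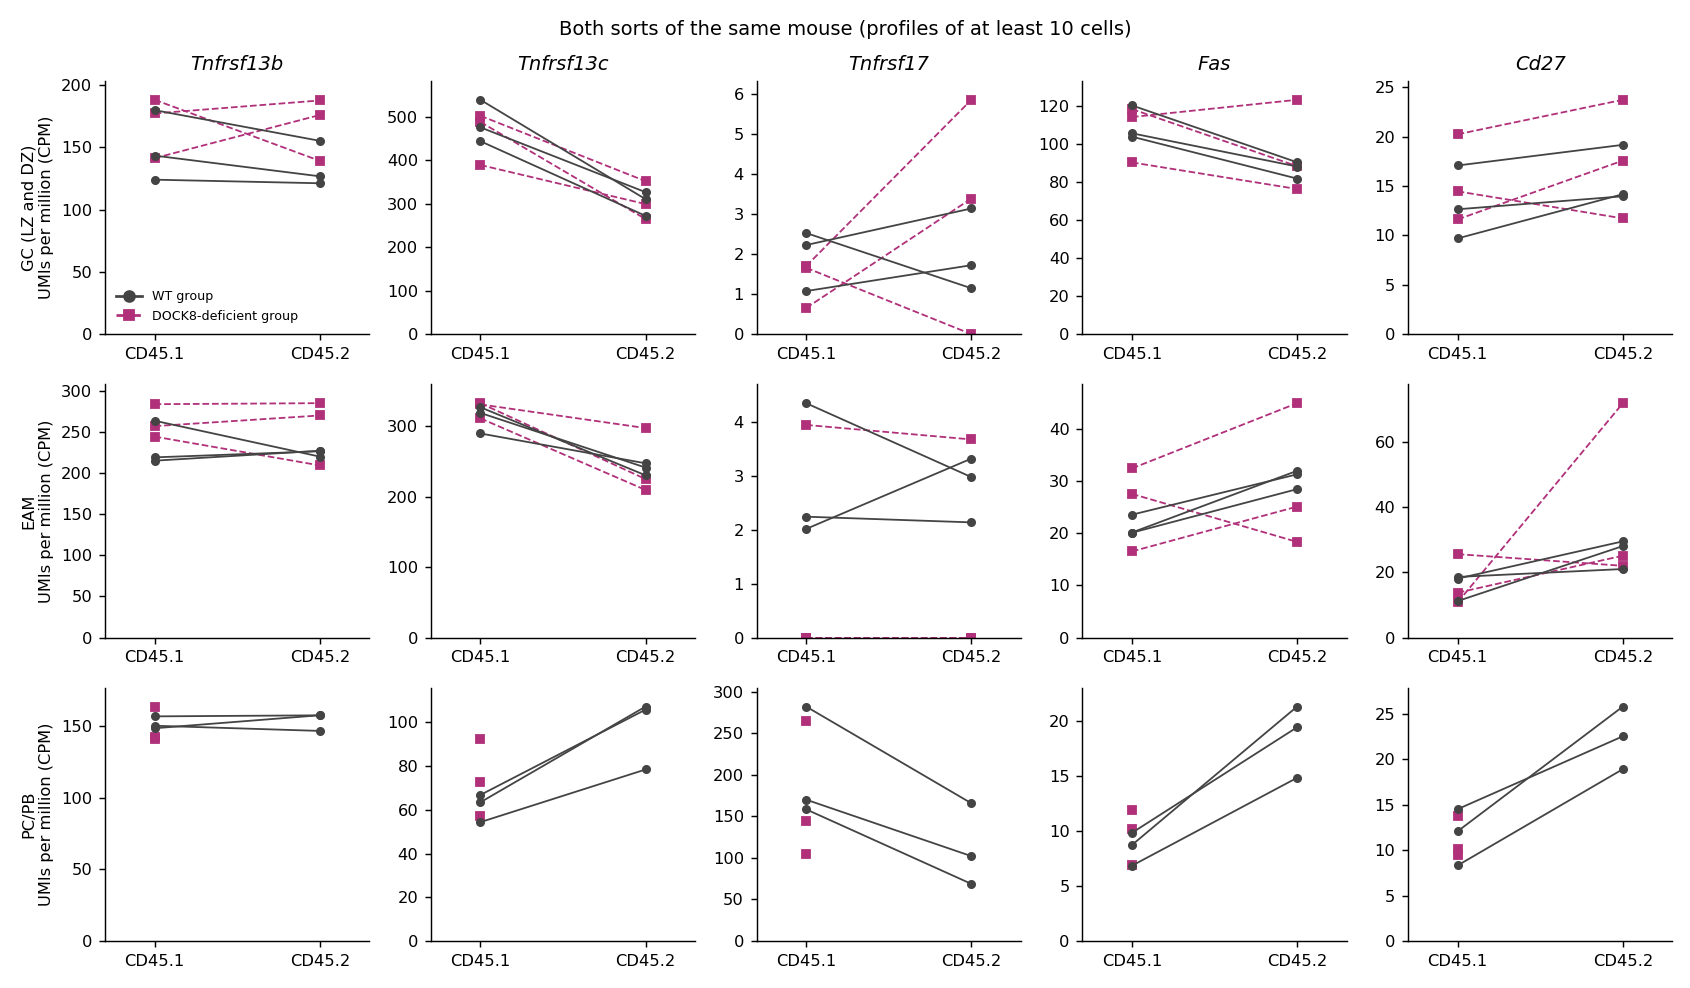
CPM (vertical axes) of the 5 receptors in the CD45.1 and CD45.2 cells of the same mouse, joined by a line, in GC, EAM and PC cells, for profiles of at least 10 cells. In PC of the WT group the Tnfrsf17 lines fall toward CD45.2 and those of Tnfrsf13c, Fas and Cd27 rise.

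The PC against LZ contrast was then compared between sorts in 1 fit over the mice of the WT group, a comparison added after the values had been seen. It was larger (less negative) in CD45.2 cells by 0.98 for Tnfrsf13c (SE 0.18, adjusted p = 0.000154) and by 1.29 for Fas (SE 0.28, adjusted p = 0.00144). Tnfrsf13b (−0.12, adjusted p = 0.779), Tnfrsf17 (−1.04, adjusted p = 0.619) and Cd27 (0.76, adjusted p = 0.23) did not pass. All genes gave 9.25% called for PC, 0.648% for EAM and 0% for DZ, where edgeR and DESeq2 both called 0 of 9260 genes and 453 had an unadjusted p under 0.05. For DZ and EAM no member passed. The Fas term was 1.18 (adjusted p = 0.11) without cells holding T cell UMIs.

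The third question was whether Dock8 cpm/cpm cells differed from Dock8 wt/wt cells in the CD45.2 sort. No member was called, and the intervals show how large a difference the 71 GC cells of the cpm/cpm samples left possible. They do not cover wt/wt cells that the hashtags may have given to a cpm/cpm mouse. Tnfrsf13c was 352, 299 and 265 CPM in cpm/cpm GC cells against 272, 326 and 310 in wt/wt ones, a log2 difference of −0.12 (95% interval −0.41 to 0.17, adjusted p = 0.968). Tnfrsf13b was 188, 176 and 139 CPM against 121, 155 and 127 (0.18, −0.19 to 0.54, adjusted p = 0.948). Fas was 123, 76.2 and 88.2 CPM against 81.7, 88.0 and 90.3 (0.02, −0.39 to 0.44, adjusted p = 0.996). Cd27 rested on 3, 2 and 7 UMIs in the cpm/cpm mice (0.15, −0.78 to 1.07, adjusted p = 0.988). For each of the 4 the groups overlapped and the interval held 0.

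All genes gave 0.0433% called for genotype in GC and 0.488% in EAM. In EAM, Tnfrsf13b was 285, 270 and 209 CPM, Tnfrsf13c 209, 225 and 297, and Fas 25.1, 45.0 and 18.3 in cpm/cpm cells, with log2 differences of −0.07, −0.09 and −0.42 (adjusted p = 0.941, 0.924 and 0.818). The cpm/cpm samples held 1, 5 and 7 PC, so Tnfrsf17, seen in wt/wt PC, could not be compared between genotypes.

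CD45.1 cells are Dock8 wt/wt in every mouse, and those of the DOCK8-deficient group were compared with those of the WT group. In GC, Tnfrsf13c was 502, 389 and 488 CPM against 444, 476 and 539, and Fas 114, 90.2 and 118 against 104, 106 and 120. The ranges overlapped. The log2 differences were 0.18 for Tnfrsf13b, −0.08 for Tnfrsf13c, −0.03 for Fas and 0.25 for Cd27, with adjusted p = 0.99992 for all 4. In PC, Tnfrsf17 was 104, 264 and 144 CPM against 158, 170 and 282 (−0.29, adjusted p = 0.939), with Tnfrsf13b at −0.06 and Tnfrsf13c at 0.22. All genes gave 0.0124% called in GC, 0.0208% in PC and 0% in EAM, where edgeR and DESeq2 both called 0 genes and 174 of 4677 had an unadjusted p under 0.05. Whether the difference between sorts itself differed between the groups was tested for Tnfrsf13b, Tnfrsf13c, Fas and Cd27, and not for Tnfrsf17. None was called, with values in that order of −0.004, −0.03, 0.05 and −0.16 in GC and −0.21, −0.15, −0.62 and 0.23 in EAM. The intervals, at the level given for genotype, were narrowest for Tnfrsf13c (−0.32 to 0.26 in GC, −0.51 to 0.21 in EAM). They were widest for Cd27 (−1.18 to 0.87 and −0.95 to 1.41), so differences of that size remained possible. Of all genes, 0.0114% were called in GC and 1.18% in EAM.

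Other genes of these pathways were counted from lists of receptors, ligands, TRAF and NF-kB signalling, Fas death signalling and BAFF survival output, 81 genes in all. In CD45.1 cells, 4 rose and 26 fell in DZ against LZ of 52 tested, 13 rose and 34 fell in PC, and 6 rose and 15 fell in EAM, beside 43.3%, 64.4% and 35.1% of all genes called in either direction. The median log2 differences of the list were −0.418, −0.879 and −0.102, beside medians of −0.045, −0.049 and −0.026 over all genes. In PC, 18 of the 23 TRAF and NF-kB genes tested fell and 2 rose. Rel, an NF-kB subunit, fell by 4.69 on the log2 scale and Cd40, the receptor for T cell help, fell by 5.09, while Sdc1, which binds APRIL, rose by 6.81. Of the 4 ligands tested, 4 fell in PC, with Lta at −7.84 and Tnf at −6.25. In DZ, Siva1, a CD27-binding protein, rose by 1.95, and Tnfrsf18 fell by 1.86. Siva1 is on a DZ marker list used to name the clusters, so its rise there is not a separate result. In EAM, Relt, an orphan receptor of the family, rose by 4.73 and Bid, which carries the Fas signal to mitochondria, fell by 1.87.

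In CD45.2 Dock8 wt/wt cells, 6 of 58 listed genes rose and 25 fell in DZ, 12 rose and 29 fell in PC, and 6 rose and 10 fell in EAM, beside 32.8%, 43.1% and 22.6% of all genes. The median log2 differences of the list were −0.402, −0.419 and −0.042, beside −0.010, −0.024 and 0.023 over all genes. On total counts the list gave 6 higher and 38 lower in CD45.2 PC and 4 and 18 in EAM, and in CD45.1 cells 7 and 40 in PC and 3 and 23 in EAM. Siva1, from the DZ naming lists, rose by 2.17 in DZ. Sdc1 rose by 5.81 and Tnfsf10, the TRAIL ligand, by 5.11 in PC, and Relt by 2.39 in EAM. Between sorts, 3 rose and 17 fell of 56 in GC, beside 16.1% of all genes called in either direction. In EAM 1 rose (Bcl2l11, which encodes the BCL2 antagonist BIM, 0.73), beside 3.83% of all genes. In PC 19 rose and 4 fell of 53, beside 23.1% of all genes, led by Lta (4.12), Cd40 (3.23) and Ltb (2.74). These B cell genes rose in the CD45.2 PC that also held more Ms4a1. Of the listed genes, 0 of 54 were called for genotype in GC, beside 0.0433% of all genes. In EAM 1 was called, beside 0.488% of all genes. It was Fcmr, the IgM receptor once named an inhibitor of Fas death, which was higher by 1.02 (adjusted p = 0.023).

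Genes with a pattern most like each member were ranked by Pearson's r over 25 profiles of CD45.1 cells (mouse and state), and r over 18 CD45.2 Dock8 wt/wt profiles is given second. Profiles share mice, libraries and states, so r is a description. Tnfrsf13c went with Cd86 (0.989, 0.956), Hvcn1 (0.980, 0.744) and Sorl1 (0.978, 0.901). Tnfrsf17 went with Cd28 (0.984, 0.944), Selenok (0.982, 0.953) and Txndc5 (0.981, 0.868). Fas went with Rgs2 (0.962, 0.827), Marcksl1 (0.961, 0.881) and Lck (0.959, 0.809), and Tnfrsf13b with Pdcd4 (0.929, 0.752), Chd2 (0.913, 0.865) and Ctss (0.907, 0.726). Of these genes, Hvcn1, Sorl1, Rgs2 and Marcksl1 are on LZ lists and Txndc5 is on PC lists used to name the clusters. Their r is thus partly set by the naming. Cd27 had no close neighbour in both sorts, since its first gene, Arl6ip5, gave 0.717 and 0.311. Between members, Tnfrsf13c and Fas gave 0.865 and 0.736, and Tnfrsf13c and Tnfrsf17 −0.897 and −0.833.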

How the data were processed

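The authors processed both libraries of each sort with Cell Ranger 5.0.1 against mm10, per their processing notes, which also name Seurat 4.0, and deposited raw UMI counts per gene and barcode. Cells were pooled before sorting, so the mouse of each cell was read here from the deposited hashtag counts and the authors' hashtag table. Of 5232 (CD45.1) and 24241 (CD45.2) mRNA barcodes, 4857 and 14617 were also in the hashtag library. HTODemux (quantile 0.99) classed 1562 and 8048 of these as hashtag doublets, which were removed. Cells with a single hashtag, 100 to 5500 genes and at most 10% mitochondrial UMIs were kept. The study kept more CD45.2 cells, and cells given to the wrong mouse were not counted here. Scrublet's own threshold marked 13 of 3204 and 4 of 6488 cells and was not used. Cells were clustered with Seurat 5.3.0 and sctransform 0.4.2 (3000 variable genes less the members, 30 components, resolution 0.9), and a cluster was named from the study's marker lists. Counts were summed per mouse, sort and state where at least 10 cells were found, and tested with edgeR 4.0.16 (TMM, glmQLFTest, Benjamini-Hochberg adjustment over all genes tested). Both sorts and all states of a mouse come from the same animal, so the mouse was a block in the state, sort and interaction fits. Each mouse is 1 replicate, but all mice of a sort share a library. DESeq2 1.42.0 and other scalings, filters and hashtag rules were alternatives. CPM are UMIs per 1000000 UMIs of the summed profile. Named genes were the members, for the pathway lists the largest called differences, and the 3 closest genes in likeness. The members and lists were chosen with earlier results of these data known.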

Additional observations from a re-analysis of the deposited data

Results flagged for a closer look

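In the DZ of CD45.1 cells, Tnfrsf13c was 450.27 CPM in WT-group mouse 3, set apart from the other 5 mice by 0.68 of the range of the group. Of 20 groups examined in this way 1 stood out, and chance gives about 1 in 20.

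The difference between PC and LZ was not the same in the 2 sorts for Tnfrsf13c (0.975748 on the log2 scale, CD45.2 minus CD45.1) and for Fas (1.29108), by the test of the difference itself. The B cell and GC transcripts that were higher in CD45.2 PC are given beside the PC values, and their part was not tested.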

How the results depend on the processing

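Of the values called as different, alternatives other than leaving out a mouse kept direction and call in 478, lost the call in 32 and turned 2, and leaving out 1 mouse kept 118 and lost 11. Calls without a mouse block stayed as with it except Cd27 in EAM of CD45.2 cells (0.49, adjusted p = 0.093), which took the CD45.2 state calls from 12 to 11. The 7 calls between sorts became 3 with DESeq2, 4 without cells holding T cell UMIs and 4 to 7 on leaving out a mouse (4 without WT-group mouse 3), and the 2 calls of the difference between sorts in PC against LZ became 1 without cells holding T cell UMIs. In CD45.2 cells, Tnfrsf13b in PC against LZ lost its call without mouse 1 (0.40, adjusted p = 0.052), without mouse 3 (0.22, adjusted p = 0.062) and under a 3-fold hashtag rule (0.19, adjusted p = 0.16). The cause of these changes was not tested. Shares of cells with a UMI follow depth by construction: Tnfrsf13b in EAM was 67.6% unthinned and 23.9% at 1000 UMIs, Tnfrsf13c in LZ 85.7% and 47.4%, Fas in LZ 37.7% and 12.5%, and unthinned Tnfrsf17 in PC 55.8% and Cd27 in LZ 6.71% (means over 6 CD45.1 mice).

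Values of Tnfrsf13b in PC against LZ turned on total counts (−0.45 and −0.30). Values that were not called and turned sign were small or rested on few UMIs. Cd27 in CD45.1 PC gave 0.0053 with DESeq2, 0.026 at resolution 1.2, 0.013 under a stricter cell filter and 0.011 with LZ1 in LZ, and −0.113 to 0.052 on leaving out a mouse. Tnfrsf17 in CD45.1 EAM gave −0.036 with hashtags normalized over each cell, −0.149 without T cell UMIs, −0.0757 on total counts and −0.0760 on those without immunoglobulin genes (−0.437 to 0.669 on leaving out a mouse), and Cd27 there −0.00998 under the 3-fold hashtag rule, −0.179 and −0.175 (−0.0487 to 0.262). In CD45.2 cells Tnfrsf17 gave 0.228 in DZ with DESeq2 (−0.279 to 5.43) and −0.0441 in EAM with LZ1 in LZ (−0.0247 to 6.73), the high values coming without mouse 2, which held all LZ UMIs. In the difference between sorts, Tnfrsf13b in PC gave 0.0128 on total counts (−0.230 to 0.00985) and Tnfrsf17 −2.78 to 4.54 on leaving out a mouse. Between sorts, Tnfrsf13b gave 0.0291 in EAM without T cell UMIs, and 0.0264 and 0.0133 in PC on the total counts.

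For genotype in GC, Tnfrsf13b gave −0.0294 (3-fold hashtag rule) and −0.234 (DZ alone), Fas −0.0419 without a filter and also under the stricter cell filter, −0.178 (3-fold rule) and −0.160 (hashtags over each cell), with −0.136 to 0.102 on leaving out a mouse, and Cd27 −0.0546 (3-fold rule, −0.260 to 0.307). In EAM, Tnfrsf13b gave 0.0143 (hashtags over each cell), 0.121 and 0.113 (total counts, −0.177 to 0.0452), Tnfrsf13c 0.0969 and 0.0890 (total counts, −0.406 to 0.00760) and Cd27 −0.0852 (hashtags over each cell, −0.418 to 0.590). For the CD45.1 cells of both groups in GC, Tnfrsf13b gave −0.0394 (DZ alone), Tnfrsf13c 0.0358 (hashtags over each cell, −0.144 to 0.0145), Fas 0.274 (the same), 0.0369 (without T cell UMIs) and 0.160 (LZ alone), with −0.108 to 0.0621 on leaving out a mouse, and Cd27 −0.0178 to 0.483. Over all genes, DESeq2 called 538 for 1580 between sorts in GC, 208 for 363 in EAM, 890 for 2111 in PC and 77 for 43 for genotype in EAM, and hashtags normalized over each cell gave 1749 for 3340 in CD45.1 DZ and 1646 for 2709 in EAM. Total counts changed the split of PC calls between sorts from 1107 higher and 1004 lower to 1616 and 591. A minimum of 20 cells could not be fitted for genotype or for the difference between groups, nor LZ alone for genotype.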
